A study of Homo sapiens with 13 samples.

Results

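The 7 genes described here encode the ID proteins (ID1, ID2, ID3 and ID4) and the E proteins (TCF3, TCF4 and TCF12). They were taken by name from the 20033 protein-coding genes of GENCODE version 44 on chromosomes 1 to 22, X and Y, and every PTBP1 or RUNX1 peak in each gene or in the 20 kb on either side was collected. This gave 14 of the 17058 peaks deposited, 9 of 9370 from the PTBP1 list and 5 of 7688 from the RUNX1 list. The peaks come from MOLM-13, a long-established line of human acute myeloid leukemia cells, for which the labels name no treatment or genetic change. CUT&Tag, in which an antibody directs a transposase to cut near its target, was done for PTBP1 and for RUNX1, each in 2 biological replicates, and for 1 IgG control. The other 8 of the 13 libraries were CUT&RUN, in which a nuclease does the cutting, with 2 replicates each for PTBP1, RUNX1, IgG and H3K27me3. A single peak list was available per target, so values carry no replicate error and no difference was tested. Peak lists do not measure RNA or protein, so expression of the members and markers of the cell line were not examined.

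E proteins are helix-loop-helix transcription factors that bind E-box DNA as dimers, with one another or with tissue-restricted partners, and they direct lymphoid and other blood cell programmes. ID proteins carry the helix-loop-helix but lack the basic region that contacts DNA, and by pairing with E proteins they keep them off E-boxes. Transcription of the ID genes is a well known response to BMP signals that act through SMAD proteins. PTBP1 is best known as a splicing regulator that binds RNA, and RUNX1 is a blood transcription factor that binds DNA.

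The sequences at 4 summits, the positions of highest signal within a peak, are shown because the start-site peaks of ID1, ID3 and TCF3 and the TCF4 peak carry the results that follow. They are hg38 sequence on the strand of the gene, 5′ to 3′. Capitals mark the 25 bases centred on the summit. The ID3 window was cut where the annotated 5-prime UTR begins. The summit of the TCF12 peak, 80 bases upstream of that gene, lay in an annotated UTR of another gene, and its window is not shown.
ID1 start site, PTBP1 summit, chr20:31605082-31605182, plus strand: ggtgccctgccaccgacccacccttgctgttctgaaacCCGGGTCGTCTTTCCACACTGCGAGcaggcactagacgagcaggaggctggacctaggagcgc
ID3 start site, RUNX1 summit, chr1:23559502-23559578, minus strand: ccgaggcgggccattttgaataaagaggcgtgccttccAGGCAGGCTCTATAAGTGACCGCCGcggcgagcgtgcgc
TCF3 start site, PTBP1 summit, chr19:1652752-1652852, minus strand: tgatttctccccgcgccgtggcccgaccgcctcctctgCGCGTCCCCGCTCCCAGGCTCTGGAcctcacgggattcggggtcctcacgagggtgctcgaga
TCF4, RUNX1 summit, chr18:55634714-55634814, minus strand: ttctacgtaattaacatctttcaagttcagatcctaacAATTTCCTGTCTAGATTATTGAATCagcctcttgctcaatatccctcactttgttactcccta

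The PTBP1 and RUNX1 lists had peaks at partly different members. PTBP1 peaks were found in the windows of 2 of the 7 genes, ID1 and TCF3, beside 43.7% of all protein-coding genes with a PTBP1 peak in a window drawn the same way. RUNX1 peaks were found at 4 genes, ID3, TCF3, TCF4 and TCF12, beside 42.0% of all genes. ID2 and ID4 had no peak of either list, as was the case for 48.7% of genes. At the start site itself, meaning a peak within 1 kb of the annotated 5-prime end of the gene, PTBP1 was present at ID1 and TCF3 (26.4% of all genes) and RUNX1 at ID3, TCF3 and TCF12 (21.3%). TCF3 was the 1 member with peaks of both lists there, which 17.3% of genes had. ID1 had a PTBP1 peak without a RUNX1 peak (9.05% of genes), and ID3 and TCF12 had a RUNX1 peak without a PTBP1 peak (3.98% of genes). With 7 genes these counts describe the members and say nothing about the family as a class.

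**Figure D1:**
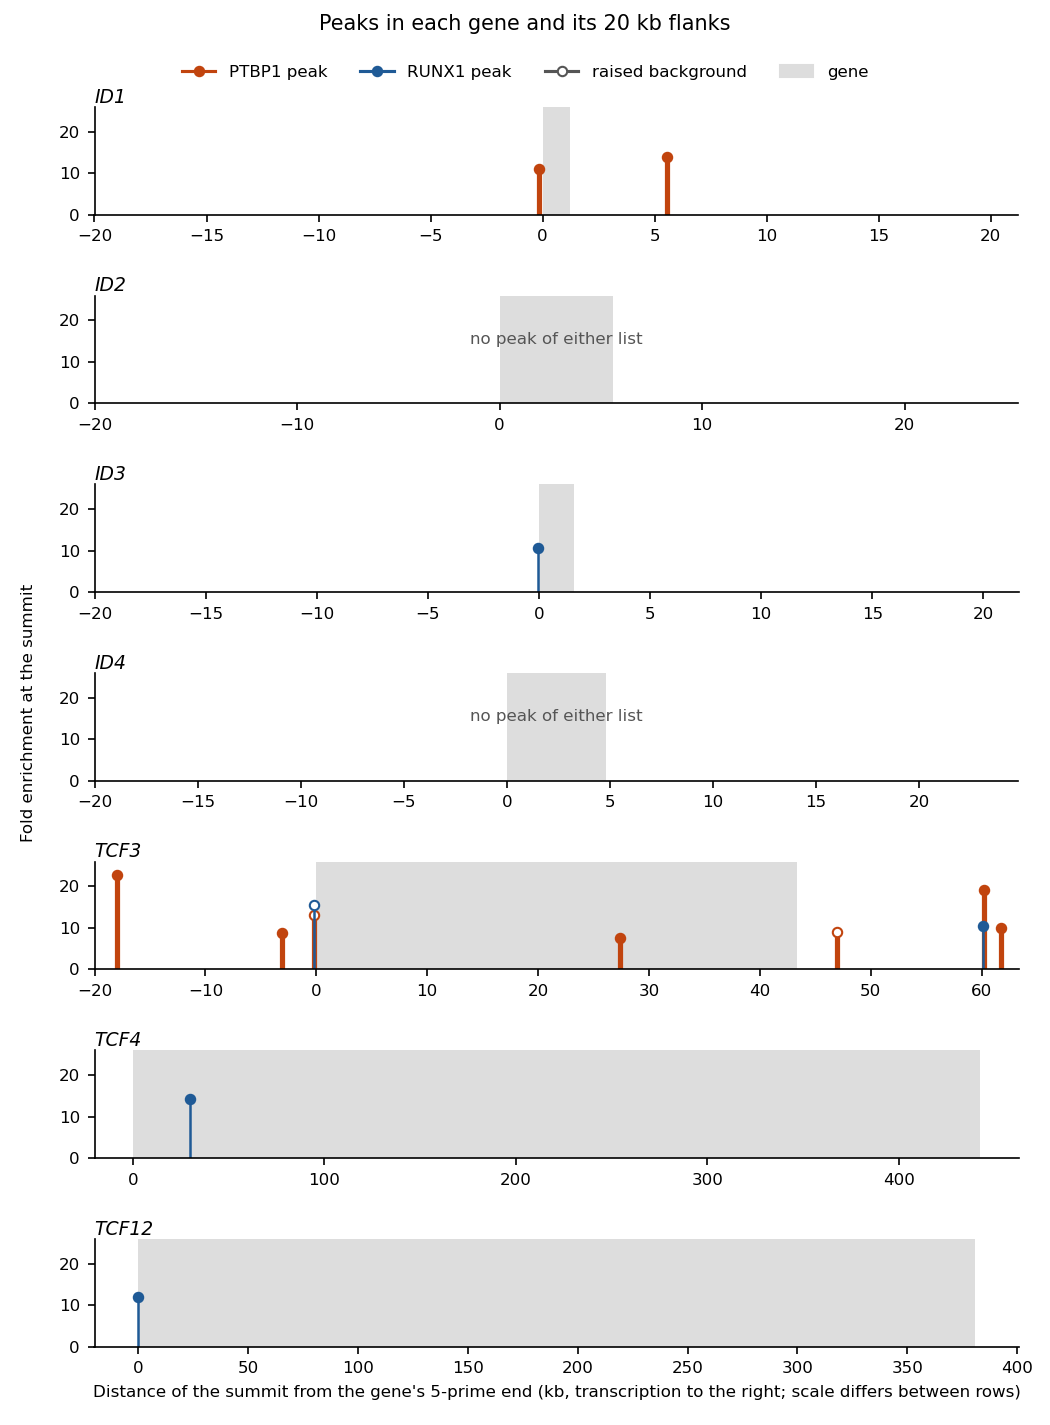
Each row is 1 gene, with the distance of every peak summit from the gene's 5-prime end in kb on the horizontal axis (the direction of transcription runs to the right and the scale differs between rows) and the fold enrichment at the summit as the height of each line. Orange lines are PTBP1 peaks, blue lines are RUNX1 peaks, open circles mark a raised background and grey marks the gene; 9 of the 14 peaks lie in the TCF3 row and none in the ID2 and ID4 rows.

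Among the ID genes, ID1 had only PTBP1 peaks and ID3 only a RUNX1 peak. ID1 (ENSG00000125968.9, chromosome 20, 31605283 to 31606515, plus strand) is a gene of 1233 bases. Its start-site PTBP1 peak, at 31604333 to 31605246, peaked 151 bases before the gene and ended 37 bases short of the first base. The summit held 18 fragments (exact Poisson 95% interval 10.7 to 28.45) on a background of 0.720, which gave a fold enrichment of 11.0. Fold enrichment is the number of fragments at the summit over the background, with 1 added to each, and 44.4% of PTBP1 peaks were at or below this value. A long noncoding RNA gene, ENSG00000289875, also starts within 1 kb of this peak, so the peak cannot be given to ID1 alone. A second PTBP1 peak, at 31610630 to 31611034, lay 4299 bases beyond the end of ID1, away from any annotated start, with 23 fragments (14.6 to 34.5) and a fold enrichment of 13.95. The counting intervals of the ID1 peaks overlapped, and their difference was not tested. Neither overlapped a RUNX1 peak, and the nearest RUNX1 peak lay 274.5 kb from the ID1 start, a distance reached or exceeded at 22.6% of protein-coding genes. The paper reports co-localization of RUNX1 and PTBP1 at ID1 from signal tracks, which were not examined here. RUNX1 summits at the usual background had at least 8 fragments, so weaker RUNX1 signal at ID1 was not detectable in this list.

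ID3 (ENSG00000117318.9, chromosome 1, 23557926 to 23559501, minus strand) had a RUNX1 peak that spanned its 5-prime end, at 23559291 to 23559637, with the summit 27 bases upstream. The summit held 13 fragments (6.92 to 22.2) on a background of 0.330 and had a fold enrichment of 10.5, with 26.8% of RUNX1 peaks at or below it. All 3 annotated ID3 transcripts start within 1 kb of this peak and no other gene does. The nearest PTBP1 peak was 190.2 kb from the ID3 start, although 8 PTBP1 peaks lay within 500 kb of it. Each of ID1 and ID3 had 1 start-site peak, below the median strength of its list, and no peak of the other target in its window.

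The ID2 and ID4 surroundings were not alike. ID2 (ENSG00000115738.10, chromosome 2, 8678845 to 8684461, plus strand) had its nearest peaks of both lists in the same place, 33.9 kb upstream for PTBP1 and 33.8 kb for RUNX1. The RUNX1 peak there, at 8644597 to 8645065, had 24 fragments and a fold enrichment of 18.8, and it contained the PTBP1 peak, at 8644697 to 8644986, which had 14 fragments and a fold enrichment of 8.72. Within 500 kb of the ID2 start there were 10 RUNX1 peaks and 1 PTBP1 peak. ID4 (ENSG00000172201.12, chromosome 6, 19837370 to 19842197, plus strand) was the more isolated, with 0 PTBP1 peaks and 1 RUNX1 peak within 500 kb. Its nearest PTBP1 peak was 2131 kb away, a distance reached by only 3.53% of protein-coding genes. PTBP1 summits at the usual background had at least 11 fragments and RUNX1 summits at least 8, so weaker signal at ID2 and ID4 was not detectable in these lists.

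**Figure D2:**
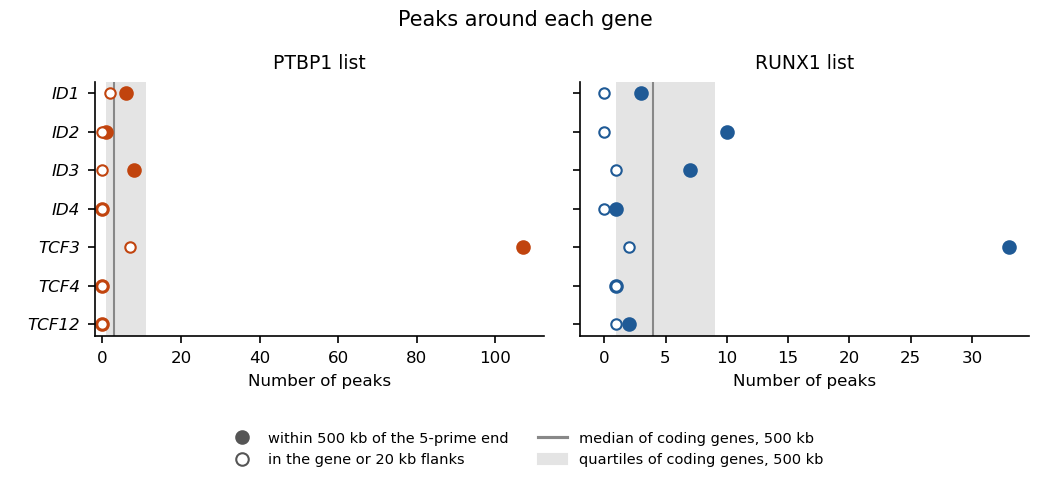
The horizontal axis gives the number of peaks and each row is a member gene, with filled points for peaks within 500 kb of the 5-prime end and open points for peaks in the gene or its 20 kb flanks. The grey line is the median of all protein-coding genes for the 500 kb count (3 for PTBP1 and 4 for RUNX1), the grey band spans their quartiles (1 to 11 and 1 to 9), and TCF3 stands at 107 PTBP1 and 33 RUNX1 peaks.

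Among the E-protein genes, TCF3 (ENSG00000071564.19, chromosome 19, 1609291 to 1652615, minus strand) held 7 of the 9 PTBP1 peaks and 2 of the 5 RUNX1 peaks. TCF3 encodes the founding E proteins and is needed for early lymphoid development. Its start-site peaks had the most fragments of the member peaks of their own lists. The PTBP1 peak, at 1652632 to 1653275, held 89 fragments (71.5 to 109.5), and 95.6% of PTBP1 peaks had no more. The RUNX1 peak, at 1652632 to 1653058, held 57 (43.2 to 73.85), and 91.2% of RUNX1 peaks had no more. The peaks shared their left edge, both stopped 17 bases short of the annotated 5-prime end, and their summits were 6 bases apart, 187 and 181 bases upstream of the gene.

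Both TCF3 start-site summits sat on a raised background, and their fold enrichments were near the middle of each list. The background was 5.93 fragments for PTBP1 and 2.72 for RUNX1, each 8.24 times the usual level of its list, and the fold enrichments were 13.0 and 15.6. By fold enrichment 55.8% of PTBP1 peaks and 52.9% of RUNX1 peaks were at or below these values. Of the transcripts annotated for TCF3, 6 of 21 start within 1 kb of these peaks. A raised background was found at 4.86% of all PTBP1 peaks and 5.14% of all RUNX1 peaks.

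**Figure D3:**
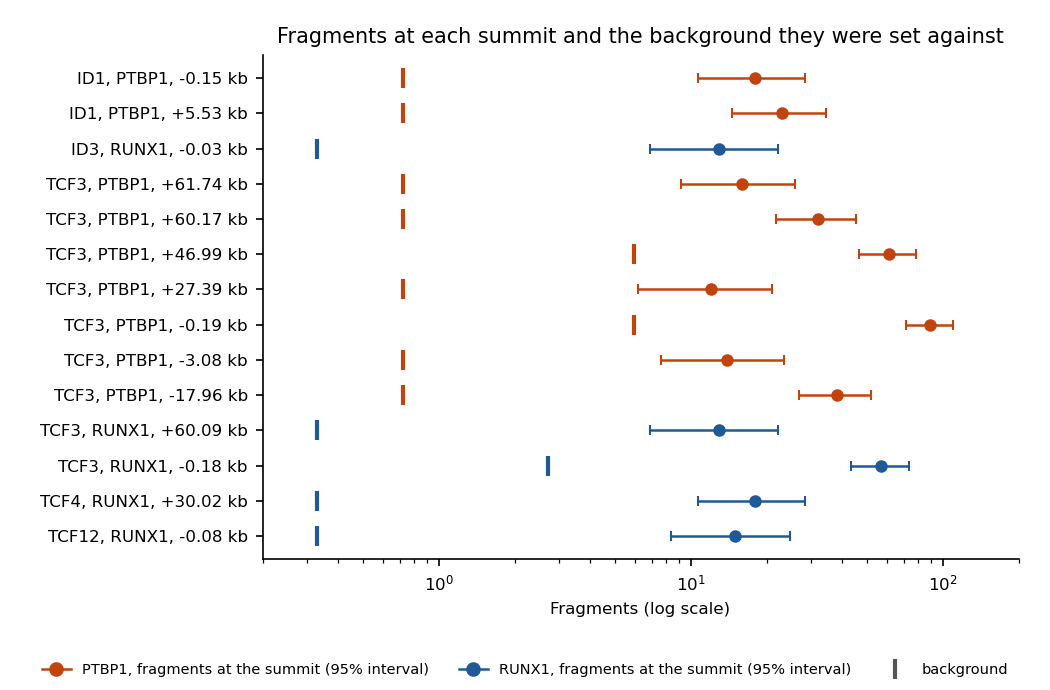
The horizontal axis gives fragments on a log scale, and each row is 1 of the 14 peaks, named by gene, target and the distance of its summit from the gene's 5-prime end. Points are the fragments at the summit with exact Poisson 95% intervals, vertical ticks are the background, and the TCF3 start-site peaks, with 89 PTBP1 and 57 RUNX1 fragments, have both the most fragments of their list here and a background above the usual 0.720 or 0.330.

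The other 6 PTBP1 peaks in the TCF3 window ranged from 7.56 to 22.7 in fold enrichment, and 3 of the 7 were away from any annotated start and outside the gene. The strongest by fold enrichment, at 1670247 to 1671009, had its summit 17956 bases upstream of TCF3, with 38 fragments (26.9 to 52.2) and a fold enrichment of 22.7. The 25 bases centred on this summit occurred 43 times in the genome, counting either strand, against 1 time for each of the other 13 summits, and 1.08% of all PTBP1 summits had as many copies or more. The part of reads from other copies in this peak was not tested. A peak nearer the gene, at 1655524 to 1655795, had its summit 3084 bases upstream with 14 fragments (7.65 to 23.5) and a fold enrichment of 8.72. The third, at 1590274 to 1590976, lay 18413 bases beyond the end of TCF3 with 16 fragments and a fold enrichment of 9.88.

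Within the gene there was 1 PTBP1 peak, at 1624916 to 1625260 in intron 7 of the canonical transcript, 27390 bases downstream of the 5-prime end. It was the weakest of the 14, with 12 fragments (6.20 to 20.96) and a fold enrichment of 7.56, and only 7.66% of PTBP1 peaks were at or below it. The remaining peaks of the TCF3 window were at the starts of its neighbours. A PTBP1 peak at 1592320 to 1593091, with 32 fragments (21.9 to 45.2) and a fold enrichment of 19.2, lay at the start of MBD3, a subunit of the NuRD chromatin remodelling complex, and overlapped a RUNX1 peak at 1592438 to 1592933 with 13 fragments and a fold enrichment of 10.5. A PTBP1 peak at 1604916 to 1605985, with 61 fragments (46.7 to 78.4), a background of 5.93 and a fold enrichment of 8.94, lay at the starts of UQCR11, a subunit of mitochondrial complex III, and of ENSG00000267059. Overlap between the lists was limited to the TCF3 and MBD3 starts, with 2 of the 9 PTBP1 peaks overlapping a RUNX1 peak (49.2% of the whole list) and 2 of the 5 RUNX1 peaks overlapping a PTBP1 peak (60.2% of the whole list).

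The number of PTBP1 peaks around TCF3 was high among genes but not for its part of chromosome 19. A window with at least 7 PTBP1 peaks was found for 3.11% of protein-coding genes, and 107 PTBP1 peaks lay within 500 kb of the TCF3 start, a count equalled or undercut at 99.0% of genes. The TCF3 window held 8.40 PTBP1 peaks per 100 kb, against 12.0 in the stretch from 1 to 2 Mb of the chromosome, 1.82 over chromosome 19 and 0.303 over the genome. For RUNX1 the same values were 2.40 in the TCF3 window, 3.60 in the stretch, 0.984 over the chromosome and 0.249 over the genome. In both lists the TCF3 window was less dense than the stretch around it.

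TCF4 and TCF12, which encode the other E proteins, had 1 RUNX1 peak each and no PTBP1 peak in windows of 482.6 kb and 420.7 kb. The RUNX1 peak of TCF12 (ENSG00000140262.18, chromosome 15, 56918623 to 57299281, plus strand), at 56918179 to 56918919, spanned the 5-prime end with its summit 80 bases upstream. It held 15 fragments (8.395 to 24.7) and had a fold enrichment of 12.0, with 37.3% of RUNX1 peaks at or below it. This start is shared, since TCF12-DT, a noncoding gene, and ENSG00000285253, annotated as protein-coding, also begin within 1 kb, along with 9 of the 28 TCF12 transcripts. No PTBP1 peak lay within 500 kb of TCF12, and the nearest was 1413 kb from its start.

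At TCF4 (ENSG00000196628.20, chromosome 18, 55222185 to 55664787, minus strand), a gene active in neural and plasmacytoid dendritic cells, the RUNX1 peak was internal. It lay at 55634677 to 55635045, with its summit 30023 bases downstream of the 5-prime end of the gene but 46572 bases upstream of the start of the canonical transcript. Of the 93 transcripts annotated for TCF4, 6 start within 1 kb of it, as does the pseudogene RPL21P126, so by transcript it was a start-site peak and by the end of the gene it was not. It held 18 fragments (10.7 to 28.45) with a fold enrichment of 14.3, close to the middle of the RUNX1 list, of which 49.3% was at or below. The nearest PTBP1 peak was 973.6 kb from the TCF4 start. Long windows without a PTBP1 peak were common, since 19.2% of the 417 protein-coding windows at least as long as that of TCF4, and 18.5% of the 562 at least as long as that of TCF12, held one. For RUNX1 the shares were 30.5% and 30.6%.

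**Figure D4:**
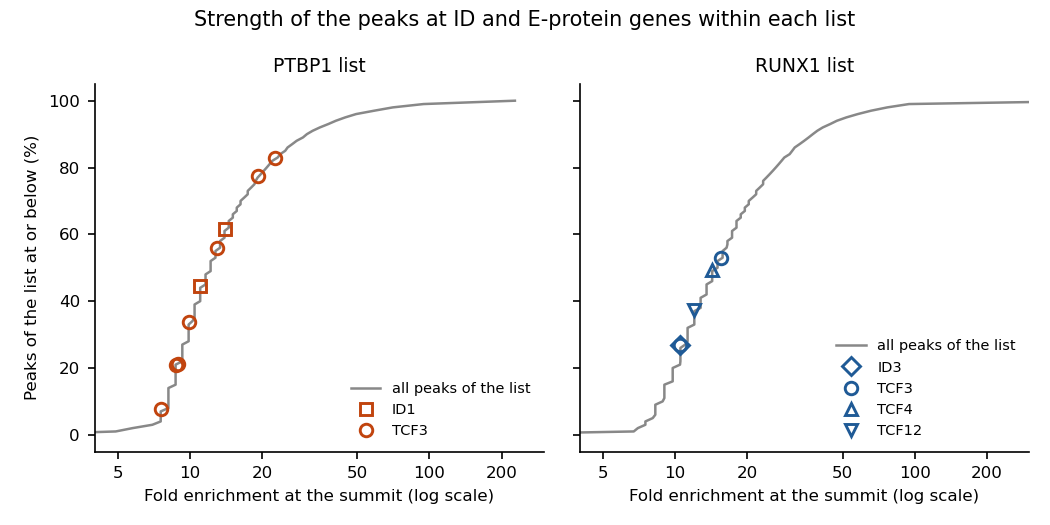
The horizontal axis is fold enrichment at the summit on a log scale and the vertical axis the percent of the list at or below it, with the grey line for all peaks of the PTBP1 list (left) or RUNX1 list (right). Symbols are the member peaks by gene; the PTBP1 peaks run from 7.66% to 83.0% of their list, and the RUNX1 peaks from 26.8% to 52.9%.

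By fold enrichment the 14 peaks lay within the broad range of their lists. The median fold enrichment was 11.0 for the 9 PTBP1 peaks, against 12.2 for the whole list, and 4 of the 9 were above the median of the list. For the 5 RUNX1 peaks it was 12.0, against 15.0, and 1 of the 5, that at the TCF3 start, was above the median of the list. Ranked by the p-value instead, the TCF3 start-site peaks stood higher, with 88.0% of PTBP1 and 77.9% of RUNX1 peaks at or below them. By fragments, 91.0% of PTBP1 peaks had no more than the peak at the UQCR11 start.

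The DNA around the summits was searched for E-boxes and for the RUNX motif. No sequence known for PTBP1 was searched for. The E-box types bound by E-protein dimers (CAGCTG, and CACCTG with its reverse complement CAGGTG) and the RUNX motif (TGTGGT or TGCGGT, with the reverse complements ACCACA and ACCGCA) were absent within 50 bases of all 14 summits. Over the whole lists, 15.1% of PTBP1 and 11.4% of RUNX1 summits had such an E-box in this window, and 8.79% and 24.2% had the RUNX motif. The looser E-box CANNTG, which includes the former types, was present at 3 of the 9 PTBP1 summits, all in the TCF3 window, and at 0 of the 5 RUNX1 summits, beside 31.6% and 30.4% of the lists. At TCF4 the RUNX motif fell just outside, centred 52.5 bases downstream of the summit on the gene's strand. It is shown in capitals in the next line because it was the nearest RUNX motif to any of the 14 summits.
TCF4, RUNX motif, chr18:55634689-55634734, minus strand: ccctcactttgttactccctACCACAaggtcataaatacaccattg
The summit 3084 bases upstream of TCF3 had an E-box at 96.5 bases, at 1655793 to 1655798, across the edge of its peak at 1655795. The summit of the intron 7 peak of TCF3 had an E-box on each side, at 105.5 and 100.5 bases. The first of these, at 1625328 to 1625333, lay outside the called peak, which ended at 1625260, and the next lay within it. Both are given in the order of the gene in the next lines.
TCF3 intron 7, first E-box, chr19:1625308-1625353, minus strand: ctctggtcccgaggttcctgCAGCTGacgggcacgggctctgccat
TCF3 intron 7, next E-box, chr19:1625102-1625147, minus strand: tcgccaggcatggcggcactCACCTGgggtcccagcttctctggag
A match is a description of the letters and was not tested as a binding site.

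In the 250 bases upstream of the RefSeq start, available for all 7 members, CAGCTG or CACCTG type E-boxes were present at ID2 and ID4 alone, beside 27.7% of 15345 coding promoters. CANNTG was present at ID2, ID4, TCF4 and TCF12, beside 57.6%, and the RUNX motif was at 0 of the 7, beside 15.4%. ID2 and ID4 were the members without a peak of either list, and any relation of this to the E-boxes was not tested. The GC content of these stretches ranged from 40.8% at TCF4 to 79.6% at TCF3, around a median of 62.4% for coding promoters.

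The genes that work with ID and E proteins were placed in 3 lists. Among 12 blood partners and cofactors of E proteins, 4 had a PTBP1 peak and 4 a RUNX1 peak at the start site, and 3 had both, beside 17.3% of all protein-coding genes with both. The 3 were EP300, a histone acetyltransferase, with fold enrichments of 45.9 for PTBP1 and 53.4 for RUNX1, LYL1, a helix-loop-helix partner of E proteins, with 32.6 and 40.6, and CBFA2T2, an ETO-family corepressor, with 19.2 and 15.8. In fragments the PTBP1 and RUNX1 values were 78 and 70 at EP300, 55 and 53 at LYL1, and 32 and 20 at CBFA2T2. CREBBP, the acetyltransferase related to EP300, had a PTBP1 peak alone, with a fold enrichment of 8.14. TAL1, another helix-loop-helix partner, had a RUNX1 peak alone, with a fold enrichment of 16.5.

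Among 14 BMP receptors and SMADs, 1 had a PTBP1 peak and 3 a RUNX1 peak at the start. SMAD6, an inhibitory SMAD, had both, with fold enrichments of 37.8 for PTBP1 and 18.0 for RUNX1, and the receptors BMPR2 and BMPR1A had RUNX1 alone, with 14.3 and 9.02. The other 11 had neither at the start. Counting the 20 kb flanks, 4 of the 14 had a PTBP1 peak (43.7% of all genes) and 5 a RUNX1 peak (42.0%). In such windows 8 of the 14 had no peak of either list (48.7% of all genes). Both regulators of ID protein stability had both peaks. FZR1, an activator of the anaphase-promoting complex, had fold enrichments of 49.4 for PTBP1 and 32.3 for RUNX1, and USP1, a deubiquitinase that stabilises ID proteins, had 33.1 and 39.1. Over the 3 lists, 7 of 28 genes had a PTBP1 peak, 9 a RUNX1 peak and 6 both at the start, beside 26.4%, 21.3% and 17.3% of all protein-coding genes, and the differences were not tested. TAL1, BMPR1A and BMPR2 were named after their values were seen.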

How the data were processed

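CUT&Tag and CUT&RUN libraries of MOLM-13 cells were made for PTBP1, RUNX1, H3K27me3 and IgG, and the PTBP1 and RUNX1 peak lists were used. Per the study's methods, reads were aligned to hg38 with Bowtie2, filtered above mapping quality 30 and deduplicated, and MACS3 was run at a q-value threshold of 1e-07. The lists name no assay or replicate and were taken as CUT&Tag. The authors deposited, for each peak, a fold enrichment (a ratio), −log10 p-values and q-values, and the summit offset. From the fold and the p-value, fragments at the summit and background were solved (largest difference from the deposited −log10 p 0.00134; 0 PTBP1 and 122 RUNX1 peaks, none at the members, had a second solution within 0.002, which lay under the usual background and was not taken), and a background over 1.5 times the usual one was called raised. Library depths were not used here, and intervals cover counting error only.

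Starts are GENCODE gene 5-prime ends, and coordinates are 1-based. All peaks of the members were named, as were coding neighbours starting within 1 kb of one and, of the other lists, genes with a PTBP1 peak at the start. The members and lists were chosen with earlier results of these data known. The sequence at 1 summit is not reported here. Promoter sequences are from RefSeq (GRCh38.p14). The pileup, overlap and motif steps were tested on simulated data. Alternatives covered the flank, q-value, background, overlap, start and motif window.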

Additional observations from a re-analysis of the deposited data

Results flagged for a closer look

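The background, a value outside the comparisons of peak position, was above its usual level at 3 of the 14 peaks, all in the TCF3 window. It was 5.93 fragments at the PTBP1 peak at the UQCR11 start, 5.93 at the PTBP1 peak at the TCF3 start and 2.72 at the RUNX1 peak at the TCF3 start, against the usual 0.720 for PTBP1 and 0.330 for RUNX1. The level of 8.24 times the usual was also the most common raised level in both lists, taken by 344 of 455 raised PTBP1 peaks and 289 of 395 raised RUNX1 peaks. Where it comes from was not tested.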

How the results depend on the processing

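No paired analysis was possible because each target had a single peak list and no result came from a test. Of 43 counts recomputed under the alternatives, 30 were within 1.5 times the count reported and 13 were not. With a flank of 10 kb, 1 PTBP1 peak overlapped a RUNX1 peak, against 2 with 20 kb, and a flank of 50 kb gave 15 PTBP1 peaks, against 9. Without a flank there remained 1 PTBP1 peak at 1 gene, the TCF3 intron peak, 3 RUNX1 peaks and 0 overlaps, since the ID1 and TCF3 start-site peaks ended before the gene. Leaving out peaks on a raised background removed the TCF3 start, which left 1 overlapping PTBP1 peak and 1 member, ID1, with a PTBP1 start-site peak. When the peak had to contain the first base of the gene, 0 members had PTBP1 there, against 2. The absence of motifs depended on the window. Within 100 bases 1 of the 14 summits had a CAGCTG or CACCTG type E-box and 1 a RUNX motif, and within 150 bases these were 2 and 3. Over the whole lists, 27.6% of PTBP1 and 22.2% of RUNX1 summits had such an E-box within 100 bases. The RUNX motif was there at 16.5% and 36.6%. Within 150 bases the shares were 38.35% and 32.4% for the E-box and 23.4% and 42.7% for the RUNX motif. Motifs were counted whether or not they lay inside the called peak. A stricter q-value (−log10 q of at least 10) kept every count within 1.5 times. It left 8 of the 9 PTBP1 peaks and removed the TCF3 intron 7 peak, whose −log10 q was 9.20.

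Signal is known only where a peak was called, and library depths and replicates were not analysed, so absence of a peak is absence from these lists at their depth. The usual background of the PTBP1 list was 2.18 times that of the RUNX1 list, so the lists differ in the fragments a peak needs. At the usual backgrounds the same number of fragments gives a lower fold enrichment in the PTBP1 list. Fold enrichments of the PTBP1 and RUNX1 lists therefore do not rank the targets against each other.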
